A study of Mus musculus with 11 samples.

Results

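Ligated carotid arteries were compared with wire-injured femoral arteries in control mice, 3 libraries of each vessel out of 11 in the series. The control mice were described as flox mice and the other 5 libraries as Nrf3-/- mice, 2 carotid and 3 femoral; Nrf3 is the transcription factor encoded by Nfe2l3. All arteries were taken 7 days after injury, and polyadenylated RNA was sequenced. Carotid ligation stops flow without denuding the wall, whereas passing a wire strips the endothelium, so vessel and type of injury differed together and their parts in a difference cannot be told apart. The labels give no Cre driver, sex, age or strain, and do not say whether libraries came from separate animals, so p-values measure the spread between libraries only. All 48897 genes of the deposited count table were in scope, and 21343 of them (43.6%) had enough counts for a test.

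Arteries keep a record of where in the body they formed. HOX genes are transcription factor genes in 4 clusters, numbered by paralog group from the 3′ end of a cluster (head side of the embryo) to its 5′ end (tail and limb side), and fibroblasts and smooth muscle cells keep much of this code in adult life. Smooth muscle of the common carotid artery comes largely from cranial neural crest, while femoral smooth muscle comes from mesoderm. Injury draws smooth muscle cells out of the contractile state into a proliferating, matrix-producing one.

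Values below are levels in CPM, counts scaled to library size, in replicates 1, 2 and 3, carotid before femoral. Changes are log2 differences, carotid minus femoral, ± the standard error of a fit to all 11 libraries, with n = 3 and 3. A gene was called at a Benjamini-Hochberg adjusted p under 0.05 over all 21343 genes by edgeR's quasi-likelihood test.

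The gene removed in the knockouts checked the labels. Nfe2l3 had 57, 75 and 85 counts in the carotid and 48, 81 and 37 counts in the femoral controls, which is 1.11, 1.42 and 1.55 against 0.908, 1.65 and 0.68 CPM (0.33 ± 0.64, edgeR adjusted p 0.833). The knockouts stood at 0.185 and 0.157 against 0.233, 0.0451 and 0 CPM, below each control library. Trim5, an antiviral ubiquitin ligase that the series title pairs with Nrf3, stood at 7.802, 8.25 and 7.65 against 9.24, 6.63 and 6.78 CPM in the controls (0.07 ± 0.35, edgeR adjusted p 0.949). Both genes overlapped between the control vessels.

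Of the 21343 genes, 1326 were called (6.21%), 639 higher in the carotid artery (2.99%) and 687 lower (3.22%). At least a 4-fold difference was seen in 229 of those higher (1.07% of genes tested) and 249 of those lower (1.17%). The 6 control libraries held 51067573 to 55998563 counts, and the first principal component, with 50.3% of the variance, separated the vessels; carotid control 1 stood apart on the next (16.6%). The count of calls was 876 without carotid control 2, 875 without carotid control 3, 867 without femoral control 1, 685 without femoral control 2 and 862 without femoral control 3. It was 742 with a skeletal muscle score as a covariate and 2314 by DESeq2. Genes were also grouped in lists, and 141 of 238 called list members and other named genes kept their call when any 1 of the 11 libraries was left out. Called genes given below with their values are among those 141 unless the losing libraries are named, whereas the counts of calls per list include calls that single libraries decided. Each count of calls per list is to be read beside the shares over all genes tested, 2.99% higher and 3.22% lower.

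**Figure D1:**
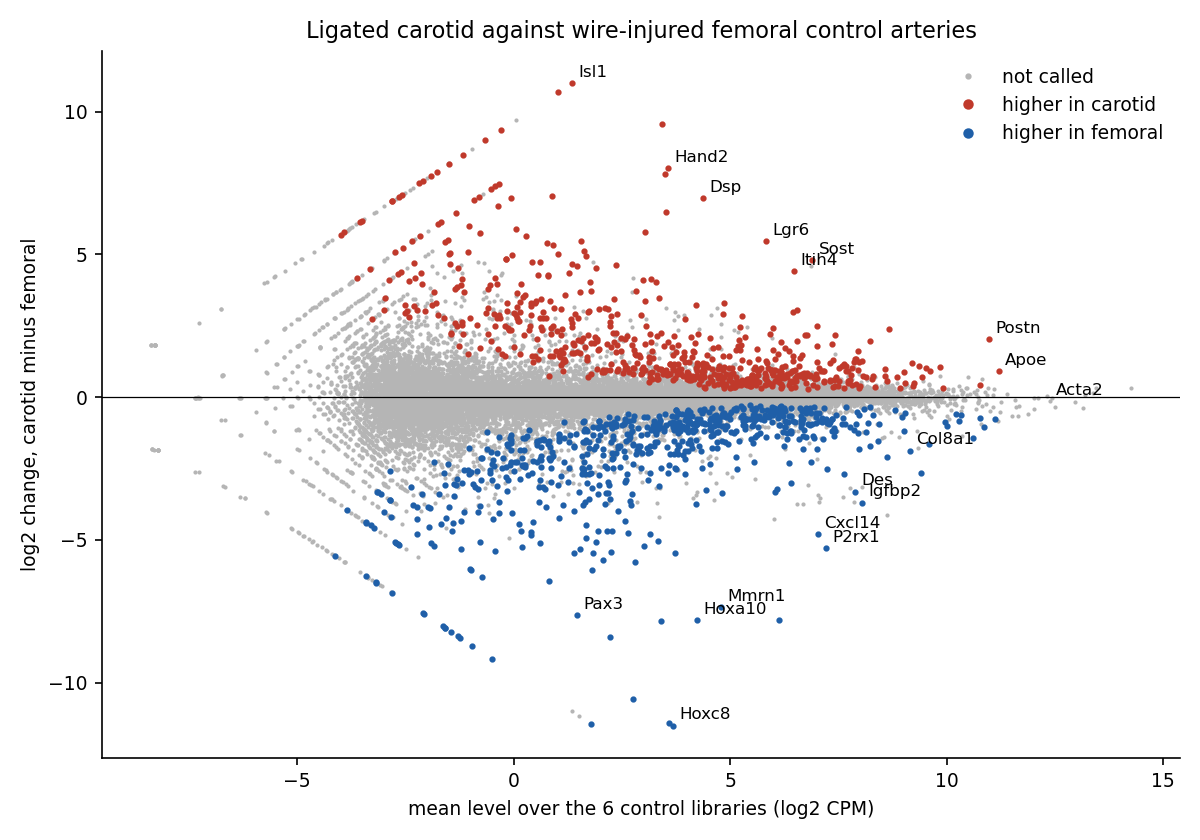
Each point is 1 of 21343 tested genes, with the mean level in the 6 control libraries on the x axis (log2 CPM) and the log2 change, carotid minus femoral, on the y axis. The 639 genes called higher in the carotid artery and the 687 called lower are coloured, and HOX genes lie among the largest falls. Along the slanted lines at low levels, genes have few or no counts in 1 vessel and the plotted change depends on the prior count.

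The 5′ HOX genes were among the largest falls. All 8 genes of paralog groups 6 to 8 were called lower in the carotid artery, against 3.22% of all genes tested, with a median log2 change of −5.60 beside 0.00 for all genes. Of groups 9 to 13, 9 of 16 genes had enough counts for a test and 8 were lower, with a median of −8.37, or −5.51 when the 4 genes at 0 in the carotid libraries were set at the bound that 3 counts over the group allow. In bulk RNA, fewer cells of a type and less RNA per cell cannot be told apart.

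Hoxa10 (group 10) stood at 0.175, 0.227 and 0.0911 against 38.6, 34.7 and 39.3 CPM (−7.82 ± 0.27, edgeR adjusted p 3.74e-07). Hoxc8 (group 8, chr15:102990539-102994254, GRCm38, plus strand) stood at 0, 0 and 0.0182 against 24.9, 25.1 and 26.7 CPM (−11.51 ± 0.45, edgeR adjusted p 3.74e-07). This rests on 1 carotid count against 4005 femoral counts, a ratio of 4077 with a 95% counting interval of 731.4 to 161100. Of the same cluster, Hoxc10, at 0.0194, 0 and 0 against 22.4, 23.6 and 26.1 CPM, and Hoxc9, at 0.0194, 0 and 0 against 12.96, 13.01 and 14.6 CPM, likewise had 1 count in the 3 carotid libraries together. Leaving out the single library that held that count moved the log2 change to −13.32 for Hoxc8, −13.24 for Hoxc10 and −12.41 for Hoxc9. Hoxb9 had no carotid count and 6.79, 7.81 and 6.102 CPM in the femoral artery, at least 368.7-fold higher there (edgeR adjusted p 6.88e-06). Hoxd10 and Hoxa11 also had no carotid count and were at least 45.66-fold and 43.6-fold higher in the femoral artery. Hoxc11 had no carotid count either and 0.0757, 0.122 and 0.312 CPM in the femoral artery, and was not called (edgeR adjusted p 0.107). Low but present in the carotid artery were Hoxa9, at 0.427, 1.003 and 0.346 against 25.7, 24.99 and 27.5 CPM (−5.46 ± 0.35, edgeR adjusted p 1.57e-05), and Hoxd9, at 0.738, 0.757 and 0.966 against 7.44, 7.16 and 6.47 CPM (−3.09 ± 0.27, edgeR adjusted p 1.38e-04). Without carotid control 2 the change of Hoxa9 was −6.07. The 7 genes of these groups without enough counts were Hoxa13, Hoxb13, Hoxc12, Hoxc13, Hoxd11, Hoxd12 and Hoxd13.

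The other genes of groups 6 to 8 were lower as well. Hoxb7 stood at 0.33, 0.1703 and 0.237 against 14.3, 14.6 and 12.2 CPM (−5.79 ± 0.23, edgeR adjusted p 3.74e-07), and Hoxc6 at 0.136, 0.0189 and 0.109 against 20.6, 18.2 and 24.3 CPM (−7.86 ± 0.36, edgeR adjusted p 9.22e-07). Hoxb6 stood at 0.291, 0.189 and 0.164 against 9.27, 9.41 and 9.06 CPM and Hoxa7 at 0.388, 0.454 and 0.146 against 8.19, 8.01 and 9.47 CPM. Hoxb8 stood at 0.0388, 0.0189 and 0.237 against 8.25, 5.51 and 6.86 CPM (−6.07 ± 0.55, edgeR adjusted p 1.87e-04), and at −7.78 without carotid control 3, which had the highest of the 3 carotid values. Hoxa6, at 0.0194, 0.114 and 0.0182 against 1.06, 0.549 and 0.974 CPM, changed by −4.03 ± 0.72, which became −5.34 without carotid control 2. Hoxd8 was the exception in size, with 8.62, 4.86 and 6.12 against 24.6, 22.5 and 17.8 CPM (−1.73 ± 0.24, edgeR adjusted p 0.00215).

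Groups 1 to 5 had calls in both directions. Of 13 genes tested, 3 were higher in the carotid artery and 5 lower. The 3 higher ones were neighbours in the Hoxa cluster: Hoxa2 at 8.17, 11.5 and 11.8 against 2.99, 2.81 and 4.14 CPM (1.66 ± 0.23, edgeR adjusted p 0.00197), Hoxa3 at 20.3, 28.9 and 30.7 against 8.55, 8.23 and 9.24 CPM (1.62 ± 0.18, edgeR adjusted p 6.10e-04), and Hoxa4 at 4.46, 6.43 and 7.38 against 1.21, 2.05 and 1.42 CPM (1.97 ± 0.26, edgeR adjusted p 0.00155). The 5 lower ones came from the other three clusters. Hoxc5 stood at 0.252, 0.132 and 0.237 against 3.33, 4.76 and 3.66 CPM (−4.22 ± 0.33, edgeR adjusted p 7.57e-05) and Hoxc4 at 0.175, 0.511 and 0.237 against 4.81, 4.11 and 5.9 CPM (−3.99 ± 0.41, edgeR adjusted p 3.50e-04). Hoxb5 stood at 0.699, 0.397 and 0.5102 against 4.24, 4.25 and 4.301 CPM (−2.99 ± 0.29, edgeR adjusted p 2.46e-04). Hoxd4 stood at 2.81, 1.89 and 2.77 against 10.1, 8.76 and 9.04 CPM (−1.90 ± 0.20, edgeR adjusted p 4.56e-04) and Hoxd3 at 0.757, 0.568 and 0.711 against 3.31, 3.13 and 2.41 CPM (−2.12 ± 0.33, edgeR adjusted p 0.004001). No call was made for Hoxa5, at 8.87, 9.91 and 7.16 against 9.69, 9.01 and 7.46 CPM, whose libraries overlapped between the vessels. Hoxb4, at 11.5, 10.2 and 8.22 against 15.5, 14.4 and 12.9 CPM, had no overlap but missed the threshold (edgeR adjusted p 0.0706), as did Hoxb2, and Hoxb3 overlapped. Hoxb1 and Hoxd1 had too few counts.

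**Figure D2:**
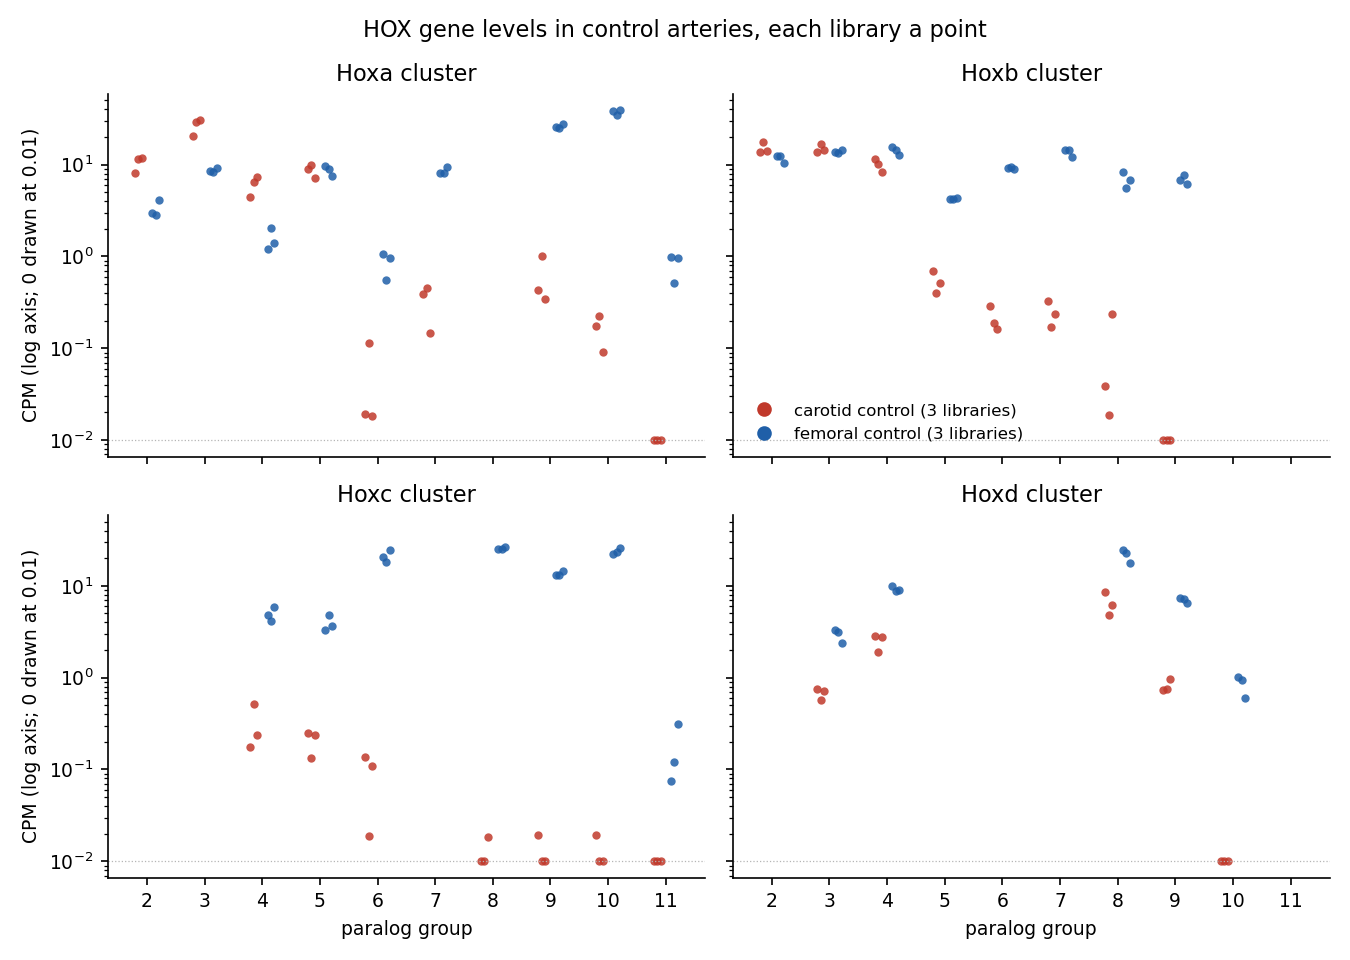
Levels of the tested HOX genes from paralog group 2 on in the 6 control libraries, in CPM on a log axis, by paralog group in 1 panel per cluster, with carotid libraries in red, femoral libraries in blue and a level of 0 drawn at 0.01. Groups 6 to 13 lie lower in the carotid libraries, Hoxa2, Hoxa3 and Hoxa4 lie higher, and Hoxa5 overlaps.

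Noncoding RNAs of the clusters were tested for 10 loci, of which 1 was higher and 4 lower. No strand setting was recorded for the counting, so reads of a HOX gene and of an overlapping antisense RNA cannot be told apart. Hoxaas2 stood at 4.81, 6.15 and 6.195 against 1.74, 1.26 and 1.599 CPM (1.90 ± 0.23, edgeR adjusted p 9.17e-04), in the direction of Hoxa2 to Hoxa4. Hoxb5os stood at 0.0194, 0.0189 and 0 against 1.29, 0.935 and 0.735 CPM (−6.03 ± 0.71, edgeR adjusted p 7.79e-04). Hoxa11os had no carotid count and was at least 25.56-fold higher in the femoral artery. The median over the 10 loci was −3.40, or −2.97 with the 2 at 0 set at their bound, and it ranged from −4.85 without femoral control 1 to −2.43 without femoral control 2. Hoxaas3 was called (edgeR adjusted p 0.0473), but not without carotid control 2 (0.132), carotid control 3 (0.137), femoral control 2 (0.0894), femoral control 3 (0.154), femoral knockout 1 (0.0644), femoral knockout 2 (0.0676) and femoral knockout 3 (0.0595), with the adjusted p in parentheses.

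The clusters also hold the miR-196 genes, whose product is known in mouse to cut the Hoxb8 mRNA and to repress other HOX mRNAs. Mir196a-1 lies in the Hoxb cluster and Mir196b in the Hoxa cluster. Only polyadenylated RNA over the precursor was counted here, not the mature miRNA. Over Mir196a-1 the carotid libraries had no count and the femoral libraries 12, 9 and 14 counts, at least 11.89-fold higher (edgeR adjusted p 0.00868). Over Mir196b the values were 0, 0 and 0.0182 against 0.151, 0.264 and 0.331 CPM, which was not called (edgeR adjusted p 0.0654). The mature sequences from RefSeq (GRCm38.p6) are shown because both share 1 seed, bases 2 to 8, in capitals.
mmu-miR-196a-5p (Mir196a-1 hairpin, chr11:96265164-96265265, plus strand): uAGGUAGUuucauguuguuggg
mmu-miR-196b-5p (hairpin chr6:52230081-52230165, minus strand): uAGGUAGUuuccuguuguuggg

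The match to that seed, ACTACCT on the transcript strand, stands in the 3′ UTR of 7 of 30 tested HOX genes that have one in the GENCODE vM21 annotation, and of 988 of all 14983 such genes tested (6.59%). Of the 7, 5 were lower in the carotid artery (Hoxa7, Hoxa9, Hoxb6, Hoxb7 and Hoxc8), beside 21 of the 30 tested HOX genes (70.0%), so nothing is read from that count. Hoxa4 was higher and Hoxa5 was not called. A match is a description of letters and not a measured site. The 22-base windows that end 1 base past the match are shown for 4 of the genes described above, with the match in capitals, beside the Hoxb8 window. The Hoxb8 window pairs with miR-196a-5p at 21 Watson-Crick positions and 1 G:U position but holds no perfect seed match, so its capitals mark the aligned bases.
Hoxa7 (chromosome 6): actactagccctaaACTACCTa
Hoxa9 (chromosome 6): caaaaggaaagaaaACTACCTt
Hoxb7 (chromosome 11): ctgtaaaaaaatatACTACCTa
Hoxc8 (chromosome 15): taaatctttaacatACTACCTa
Hoxb8 (chromosome 11): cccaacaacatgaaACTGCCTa

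Other transcription factors of body position also differed. Among 40 tested factors of cranial neural crest and pharyngeal arches, 15 were higher in the carotid artery and 5 lower, with a median log2 change of 0.67. Among 28 tested factors of limb and body wall, 4 were higher and 8 lower, with a median of 0.17.

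On the carotid side, Hand2, a basic helix-loop-helix factor of heart, arch and limb, stood at 16.01, 26.6 and 28.2 against 0.0189, 0 and 0.239 CPM (8.02 ± 0.83, edgeR adjusted p 3.89e-04). The change was 10.9 without femoral control 3, the highest of the 3 femoral values. Isl1, a LIM homeodomain factor of the second heart field, stood at 5.47, 6.32 and 3.54 CPM with no count in the femoral libraries, at least 271.7-fold higher (edgeR adjusted p 2.19e-04). Tbx20, a T-box factor of the heart, stood at 2.601, 2.27 and 2.26 against 0.0379, 0.0813 and 0.0184 CPM (5.64 ± 0.60, edgeR adjusted p 4.56e-04), or 6.29 without femoral control 2. Nkx2-3, a homeobox factor of pharynx and gut, stood at 1.16, 1.19 and 0.802 against 0, 0 and 0.0184 CPM, a ratio of summed counts of 164 with a 95% counting interval of 29.04 to 6517 (edgeR adjusted p 7.10e-04). Its log2 change of 6.90 became 8.72 without femoral control 3, which held the 1 femoral count. These 4 were at or near 0 in the femoral artery. Hand2 and Isl1 are also factors of sympathetic neurons, whose defining enzymes of catecholamine synthesis, Th and Dbh, were not called. Th stood at 0, 0.0946 and 2.004 against 0, 0 and 0 CPM (edgeR adjusted p 0.215) and Dbh at 0.0776, 0.114 and 3.21 against 0.0189, 0 and 0.0368 CPM (edgeR adjusted p 0.236), highest in carotid control 3. The calls of Hand2 and Isl1 were kept without that library, and the part of neurons in their levels was not tested. Factors present in both vessels and higher in the carotid artery were Gata6 at 72.05, 90.5 and 72.2 against 36.3, 34.1 and 45.3 CPM (1.02 ± 0.14, edgeR adjusted p 0.00188), Twist1 at 34.5, 36.8 and 38.2 against 15.9, 18.5 and 17.4 CPM (1.08 ± 0.13, edgeR adjusted p 8.36e-04), and the HOX cofactor Meis1 at 13.9, 23.4 and 23.4 against 7.4, 6.1 and 7.002 CPM (1.57 ± 0.19, edgeR adjusted p 7.87e-04). Pax9, a factor of pharyngeal pouches and sclerotome, stood at 3.78, 3.54 and 2.51 against 0.132, 0.325 and 0.478 CPM (3.38 ± 0.41, edgeR adjusted p 8.98e-04). Lhx8 and Dlx6, which act in the jaw arches, had no femoral count and were at least 66.95-fold and 24.93-fold higher.

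On the femoral side, Alx4, a homeobox factor of craniofacial and limb mesenchyme, stood at 0.563, 0.738 and 0.547 against 16.8, 15.6 and 18.7 CPM (−4.79 ± 0.20, edgeR adjusted p 5.63e-07). Pax3, known in neural crest and in migrating limb muscle precursors, stood at 0.0194, 0.0189 and 0.0364 against 4.902, 5.23 and 6.396 CPM (−7.64 ± 0.35, edgeR adjusted p 2.97e-06). Pitx1, which specifies hindlimb identity, stood at 0.0194, 0.189 and 0.2004 against 5.72, 3.78 and 7.44 CPM (−5.34 ± 0.54, edgeR adjusted p 3.35e-04). Shox2, a factor of proximal limb skeleton, stood at 2.45, 1.15 and 4.12 against 31.2, 33.2 and 39.04 CPM (−3.74 ± 0.38, edgeR adjusted p 3.50e-04). Tbx15 stood at 7.32, 7.13 and 12.8 against 27.6, 28.8 and 33.8 CPM (−1.73 ± 0.23, edgeR adjusted p 0.00168) and Tbx2 at 10.2, 12.2 and 12.99 against 37.4, 34.4 and 49.3 CPM (−1.78 ± 0.21, edgeR adjusted p 7.79e-04). Alx4 and Pax3 were on the pharyngeal list, so membership of a list did not fix the direction. Tbx4, the T-box factor of the hindlimb, was lower (edgeR adjusted p 0.0287), but not without carotid control 1 (0.0667), carotid control 2 (0.0931), carotid control 3 (0.0902), femoral control 1 (0.0684), femoral control 2 (0.0737) and femoral control 3 (0.0811), with the adjusted p in parentheses.

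RefSeq promoters, 250 bases before to 50 after a gene's start, are shown for 3 of these genes, Hoxb8 as a HOX gene lower in the carotid artery and Hand2 and Isl1 as large rises. Both strands were searched for the homeodomain core TAATTA, the PBX-HOX motif TGATNNAT, the MEIS motif TGACAG, the GATA motif AGATAA, the E-boxes CATCTG and CAGCTG, and the TATA box TATAAA. They occur in 5.29%, 8.85%, 19.2%, 11.2%, 17.2%, 16.3% and 13.6% of 32851 promoters. Capitals mark any match, read on either strand. Hoxb8 held TATAAA at 2 places and TGATNNAT at 1. Hand2 held CATCTG and a run where TAATTA and AGATAA overlap. Isl1 held CAGCTG and AGATAA, and its 37 CpG dinucleotides exceed those of 94.4% of promoters, whose median is 7. No match says only that these letters are not in the window.
Hoxb8 (chr11:96281655-96281954, plus strand): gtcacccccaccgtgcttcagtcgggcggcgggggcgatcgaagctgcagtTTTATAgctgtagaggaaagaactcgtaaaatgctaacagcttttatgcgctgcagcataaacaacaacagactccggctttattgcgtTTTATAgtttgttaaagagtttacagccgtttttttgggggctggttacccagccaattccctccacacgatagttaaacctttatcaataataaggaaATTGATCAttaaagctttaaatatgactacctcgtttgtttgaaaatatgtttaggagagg
Hand2 (chr8:57320733-57321032, plus strand): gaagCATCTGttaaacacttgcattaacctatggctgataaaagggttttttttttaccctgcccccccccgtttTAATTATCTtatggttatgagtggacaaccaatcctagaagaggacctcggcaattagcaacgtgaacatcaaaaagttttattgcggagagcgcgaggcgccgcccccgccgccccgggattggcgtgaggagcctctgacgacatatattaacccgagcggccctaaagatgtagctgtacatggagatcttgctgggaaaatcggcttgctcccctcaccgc
Isl1 (chr13:116309639-116309938, minus strand): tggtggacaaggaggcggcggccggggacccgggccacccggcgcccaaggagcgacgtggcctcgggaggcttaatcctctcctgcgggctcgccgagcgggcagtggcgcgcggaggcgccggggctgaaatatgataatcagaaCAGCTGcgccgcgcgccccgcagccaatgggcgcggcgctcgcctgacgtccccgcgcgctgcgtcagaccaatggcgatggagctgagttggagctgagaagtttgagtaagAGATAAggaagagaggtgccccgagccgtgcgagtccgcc

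Outside the transcription factors and predicted genes, the largest rises among genes of at least 5 CPM in the higher vessel were led by Fam84a and by Dsp, the desmosomal protein desmoplakin. Fam84a stood at 11.99, 29.8 and 25.3 against 0.1703, 0.0407 and 0.0735 CPM (7.83 ± 0.52, edgeR adjusted p 1.88e-05), or 8.53 without femoral control 1. Dsp stood at 28.4, 51.4 and 44.1 against 0.473, 0.508 and 0.0184 CPM (6.96 ± 0.54, edgeR adjusted p 7.27e-05). Itih4, a heavy chain of inter-alpha-trypsin inhibitor, stood at 157, 215 and 137 against 12.4, 6.47 and 5.15 CPM (4.41 ± 0.41, edgeR adjusted p 2.19e-04). Pde1c, a calcium- and calmodulin-dependent phosphodiesterase known from proliferating smooth muscle, stood at 9.45, 9.895 and 10.2 against 0.587, 0.447 and 0.165 CPM (4.62 ± 0.36, edgeR adjusted p 7.36e-05). Ucp1, the uncoupling protein of brown fat, stood at 35.3, 30.9 and 2.31 against 0.189, 0.549 and 0.0368 CPM, low in carotid control 3. Its call was lost without femoral control 1 (0.0822), femoral control 2 (0.063) and femoral control 3 (0.0811), with the adjusted p in parentheses. By the same level, the largest falls outside the HOX genes were Hpse2, a heparanase-like protein, at 0, 0.0568 and 0.0182 against 11.6, 9.33 and 7.26 CPM (−8.41 ± 0.57, edgeR adjusted p 5.24e-05), and the lymphatic genes Ccl21a and Mmrn1 described below. Without carotid control 2 the change of Hpse2 was −9.6. The major urinary protein genes Mup11 and Mup13 were also among them, but their near-identical copies make the counts uncertain.

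Of the called genes with the highest CPM, Postn stood at 3588, 3491 and 2712 against 937, 592 and 857 CPM (2.04 ± 0.23, edgeR adjusted p 5.51e-04). It encodes periostin, a matricellular protein of injured arteries. Apoe, the lipid-carrying apolipoprotein made by macrophages and smooth muscle, stood at 3195, 3261 and 2807 against 1847, 1572 and 1551 CPM (0.90 ± 0.13, edgeR adjusted p 0.00237). On the femoral side Dcn (decorin) was called, but not without carotid control 3 (0.0503) and femoral control 2 (0.0518), and Lum (lumican) was called, but not without carotid control 3 (0.051) and femoral control 2 (0.0567), with the adjusted p in parentheses.

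No defining marker of smooth muscle was called between the vessels. Acta2 (smooth muscle actin) stood at 3915, 6037 and 5355 against 6085, 5203 and 5638 CPM, and Myh11 (smooth muscle myosin heavy chain) at 1132, 2199.8 and 1933 against 2515, 1699 and 2046 CPM. Tagln stood at 1906, 2936 and 2570.1 against 4243, 3981 and 3566 CPM, with no overlap between the vessels (edgeR adjusted p 0.138). Of the 5 markers, Acta2, Myh11, Tagln, Cnn1 and Smtn, edgeR called 0, and DESeq2 called 1 and limma-voom 0. An unadjusted p under 0.05 was seen for 1 of the 5, and for 4304 of all 21343 genes tested. Both tissues thus held smooth muscle RNA at high levels, as labelled.

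Of 30 tested genes of the contractile apparatus, 1 was higher in the carotid artery and 6 lower, with a median of −0.36. Intermediate filament genes were among the lower ones. Des (desmin), also a gene of skeletal muscle, stood at 36.4, 25.1 and 68.2 against 413, 479.7 and 395 CPM (−3.31 ± 0.47, edgeR adjusted p 0.00233). Synm (synemin) stood at 75.97, 73.1 and 78.2 against 201, 191 and 235 CPM (−1.46 ± 0.14, edgeR adjusted p 2.22e-04). Pln (phospholamban), which restrains the calcium pump of the sarcoplasmic reticulum, stood at 3.01, 6.39 and 6.21 against 25.5, 19.9 and 17.5 CPM (−2.01 ± 0.33, edgeR adjusted p 0.00508). Itga8, an integrin chain of contractile smooth muscle, was higher, at 699.7, 996 and 759 against 375, 284 and 411 CPM (1.20 ± 0.23, edgeR adjusted p 0.0104). The summed level of 26 tested skeletal muscle genes was 264, 90.2 and 1110.0 against 942, 8201 and 4471 CPM, carotid before femoral, and its part in these differences was not tested beyond the covariate.

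Of 20 tested genes of modulated smooth muscle, 4 were higher and 1 was lower, with a median of 0.17. Myh10, the nonmuscle myosin that rises as smooth muscle cells leave the contractile state, stood at 364, 366 and 322 against 137, 124 and 189 CPM (1.22 ± 0.15, edgeR adjusted p 0.001003). Col8a1, a short-chain collagen of migrating smooth muscle, was lower, at 341, 246 and 149 against 902, 806 and 993 CPM (−1.87 ± 0.25, edgeR adjusted p 0.00146). Of 32 tested cell cycle genes 1 was called, Mcm4 (3.1%, against 6.21% of all genes tested), and the median was −0.20. Mcm4, a replication helicase subunit, lost its call without carotid control 1 (0.0838), carotid control 3 (0.121), carotid knockout 1 (0.0677), carotid knockout 2 (0.068), femoral control 1 (0.118), femoral control 2 (0.169), femoral control 3 (0.113), femoral knockout 1 (0.0663), femoral knockout 2 (0.0716) and femoral knockout 3 (0.0626), with the adjusted p in parentheses.

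Receptors and channels that set vascular tone gave 7 higher and 10 lower of 40 tested, with a median of −0.08. The share called was 42.5%, against 6.21% of all genes tested. P2rx1, the ATP-gated channel through which sympathetic nerves contract arteries, stood at 5.63, 9.02 and 7.58 against 279, 279.9 and 311 CPM (−5.29 ± 0.27, edgeR adjusted p 1.80e-06). Its 3 femoral values lay close together, while its 3 carotid values ran from 5.63 to 9.02 CPM. The angiotensin receptor gene Agtr1b stood at 0.194, 0.359 and 0.765 against 10.7, 11.9 and 13.4 CPM (−4.76 ± 0.44, edgeR adjusted p 2.06e-04), or −5.43 without carotid control 3. Its paralog Agtr1a stood at 3.18, 3.63 and 3.06 against 2.25, 2.399 and 3.86 CPM and was not called. The vasopressin receptor gene Avpr1a stood at 2.35, 1.04 and 2.97 against 17.4, 15.9 and 21.9 CPM (−3.11 ± 0.32, edgeR adjusted p 3.92e-04). Cacna1h, a T-type calcium channel, stood at 2.35, 4.16 and 3.19 against 19.6, 19.1 and 23.01 CPM (−2.67 ± 0.25, edgeR adjusted p 2.19e-04), and the cation channel gene Trpc6 at 1.44, 0.549 and 0.784 against 4.69, 5.55 and 5.51 CPM (−2.51 ± 0.33, edgeR adjusted p 0.00153). These receptors and channels of contraction were lower in the carotid artery. The potassium channel genes Kcna5 and Kcnma1 were also called lower, so potassium channels were called in both directions. Both lower calls are outside the 141 that kept their call in every omission. Neither call was kept under the skeletal muscle covariate (edgeR adjusted p 0.0542 and 0.0604).

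Higher in the carotid artery were both subunits of the vascular ATP-sensitive potassium channel, which relaxes smooth muscle. Kcnj8 (the pore) stood at 63.3, 99.2 and 124 against 28.6, 30.8 and 32.9 CPM (1.64 ± 0.22, edgeR adjusted p 0.00153), and Abcc9 (the sulfonylurea receptor) at 215, 229 and 262 against 85.1, 83.8 and 120.3 CPM (1.29 ± 0.19, edgeR adjusted p 0.00245). Both are also pericyte markers; of 9 tested pericyte markers 2 were higher and 2 lower, the latter including Higd1b at 1.65, 1.36 and 1.48 against 8.33, 8.46 and 8.14 CPM (−2.47 ± 0.26, edgeR adjusted p 3.89e-04). Npr1, the receptor for atrial natriuretic peptide, stood at 109.6, 136 and 114 against 62.1, 60.7 and 63.5 CPM (0.95 ± 0.12, edgeR adjusted p 0.00126), and the clearance receptor gene Npr3 at 27.4, 16.9 and 11.9 against 4.98, 5.77 and 4.02 CPM (1.93 ± 0.34, edgeR adjusted p 0.00766). The alpha-1 adrenergic receptor gene Adra1b stood at 4.44, 4.96 and 5.19 against 1.29, 1.403 and 1.58 CPM (1.77 ± 0.26, edgeR adjusted p 0.00274). Adra1d, of the same family, stood at 13.5, 30.7 and 21.3 against 6.53, 4.94 and 6.93 CPM (1.83 ± 0.33, edgeR adjusted p 0.00851), with an adjusted p of 0.0512 under the skeletal muscle covariate. The P2rx1 promoter is shown for the difference at that gene, and it held 1 AGATAA match, in capitals on the other strand, and none of the other motifs.
P2rx1 (chr11:72998895-72999194, plus strand): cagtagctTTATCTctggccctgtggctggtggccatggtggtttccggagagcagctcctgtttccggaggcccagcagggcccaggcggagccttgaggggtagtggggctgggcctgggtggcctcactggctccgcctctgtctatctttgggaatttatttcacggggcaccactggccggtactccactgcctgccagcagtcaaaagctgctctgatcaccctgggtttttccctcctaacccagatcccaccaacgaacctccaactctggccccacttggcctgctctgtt

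**Figure D3:**
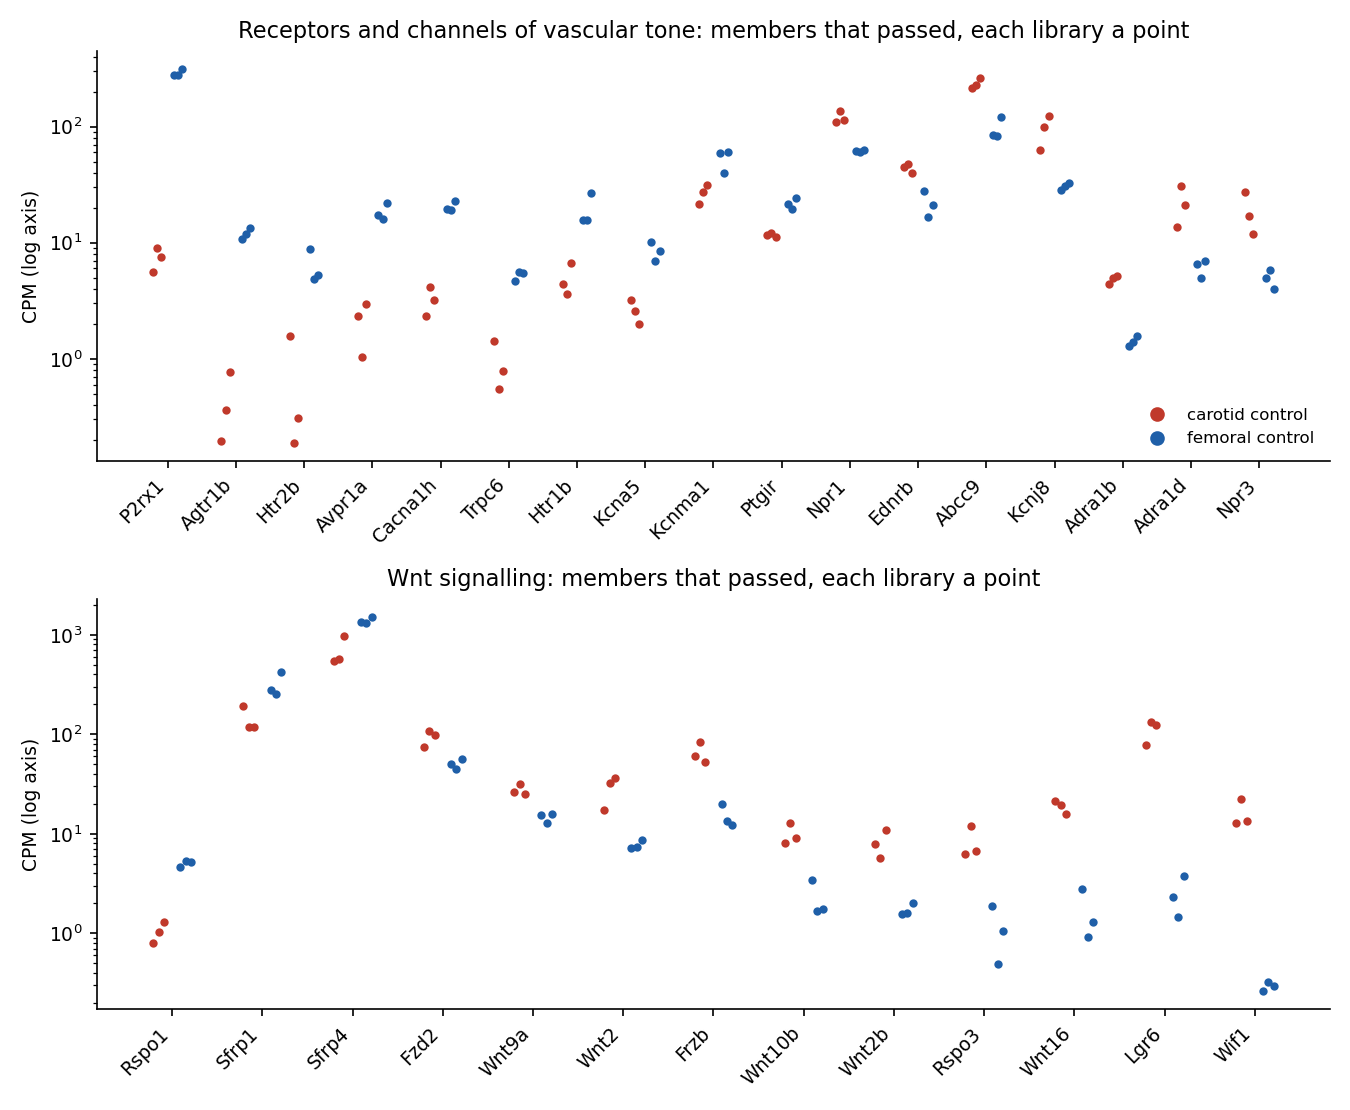
Levels of genes of vascular tone and of Wnt signalling in the 6 control libraries, in CPM on a log axis, for the called members of both lists, 1 point per library. P2rx1, Agtr1b, Avpr1a and Cacna1h lie higher in the femoral libraries, and Kcnj8, Abcc9, Wnt16 and Frzb lie higher in the carotid ones.

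Of 34 tested Wnt signalling genes, 10 were higher in the carotid artery and 3 lower, with a median of 0.35. The share called was 38.2%, against 6.21% of all genes tested. The pathway runs from Wnt ligands through Frizzled receptors to beta-catenin, with R-spondins and their Lgr receptors as amplifiers and several secreted proteins as inhibitors. Among ligands, Wnt16 stood at 21.3, 19.3 and 15.7 against 2.82, 0.915 and 1.29 CPM (3.49 ± 0.37, edgeR adjusted p 4.60e-04), or 4.09 without femoral control 1, and Wnt2 at 17.4, 32.4 and 36.1 against 7.17, 7.401 and 8.67 CPM (1.89 ± 0.25, edgeR adjusted p 0.001697). Wnt2b stood at 7.88, 5.75 and 10.8 against 1.57, 1.59 and 2.02 CPM (2.24 ± 0.27, edgeR adjusted p 9.72e-04). Lgr6, a receptor for R-spondins, stood at 77.5, 132 and 124 against 2.31, 1.44 and 3.73 CPM (5.47 ± 0.37, edgeR adjusted p 2.24e-05). Of the R-spondins, Rspo3 was higher, at 6.27, 11.98 and 6.72 against 1.89, 0.488 and 1.07 CPM (2.85 ± 0.43, edgeR adjusted p 0.00305), and Rspo1 was lower, at 0.796, 1.04 and 1.29 against 4.67, 5.37 and 5.22 CPM (−2.28 ± 0.25, edgeR adjusted p 4.70e-04). Secreted inhibitors differed in both directions. Wif1, which binds Wnt ligands, stood at 12.8, 22.6 and 13.3 against 0.265, 0.325 and 0.294 CPM (5.77 ± 0.34, edgeR adjusted p 6.88e-06). Sost (sclerostin), a blocker of Wnt co-receptors that was not on the list, stood at 188, 318 and 186 against 13.7, 3.92 and 7.13 CPM (4.80 ± 0.49, edgeR adjusted p 3.71e-04). Frzb, a Frizzled-related decoy, stood at 60.3, 83.8 and 52.8 against 19.9, 13.4 and 12.4 CPM (2.10 ± 0.22, edgeR adjusted p 4.18e-04). Of the same decoy family, Sfrp1 and Sfrp4 were lower (−1.17 and −1.001), but Sfrp1 lost its call without carotid control 2 (0.102), carotid control 3 (0.0989) and femoral control 3 (0.0942), and Sfrp4 without carotid control 1 (0.115), carotid control 2 (0.154), femoral control 1 (0.1), femoral control 2 (0.113), femoral control 3 (0.124) and femoral knockout 2 (0.0635), with the adjusted p in parentheses.

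Jag2, Dll1 and Jag1, ligands through which neighbouring vessel cells signal to Notch receptors, were lower in the carotid artery. Of 17 tested Notch genes 1 was higher and 4 were lower. Jag2 stood at 13.6, 12.1 and 14.6 against 56.3, 70.8 and 45.5 CPM (−2.10 ± 0.15, edgeR adjusted p 4.64e-05), Dll1 at 9.36, 6.11 and 5.28 against 30.3, 26.96 and 20.03 CPM (−1.90 ± 0.23, edgeR adjusted p 9.997e-04) and Jag1 at 66.1, 82.4 and 56.2 against 138, 134 and 119 CPM (−0.94 ± 0.14, edgeR adjusted p 0.00314). In the knockouts 3 Notch genes were higher and none lower, and Dll1 and Jag1 stood at −0.50 and −0.04 (edgeR adjusted p 0.314 and 0.916). The differences from the controls, 1.40 and 0.90, were not called (edgeR adjusted p 0.399 and 0.365). In the controls the 1 higher gene, Dlk1, a noncanonical ligand, lost its call without femoral control 2 (0.0526) and femoral control 3 (0.0553), with the adjusted p in parentheses.

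Of 38 tested genes of TGF-beta and BMP signalling, 5 were higher and 4 lower. The BMP-family ligand Gdf6 stood at 22.6, 11.9 and 8.07 against 2.91, 1.26 and 3.46 CPM (2.48 ± 0.44, edgeR adjusted p 0.00798), and Bmp7 at 0.757, 3.01 and 2.296 against 0.227, 0.142 and 0.221 CPM (3.34 ± 0.56, edgeR adjusted p 0.00557). The BMP antagonist Chrdl1 was lower, at 27.3, 24.2 and 17.8 against 75.96, 60.3 and 72.7 CPM (−1.59 ± 0.30, edgeR adjusted p 0.0111). Of 36 tested growth factors and receptors, 2 were higher and 5 lower. The insulin-like growth factor binding proteins moved in opposite directions: Igfbp3 was higher, at 242, 289 and 128 against 52.9, 26.7 and 37.1 CPM (2.50 ± 0.31, edgeR adjusted p 0.001002), and Igfbp2 lower, at 38.4, 34.1 and 40.8 against 437, 478 and 552 CPM (−3.69 ± 0.53, edgeR adjusted p 0.00231). Pdgfa, a mitogen for smooth muscle, was lower, at 87.4, 118 and 109 against 181, 205 and 206 CPM (−0.91 ± 0.13, edgeR adjusted p 0.00254).

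**Figure D4:**
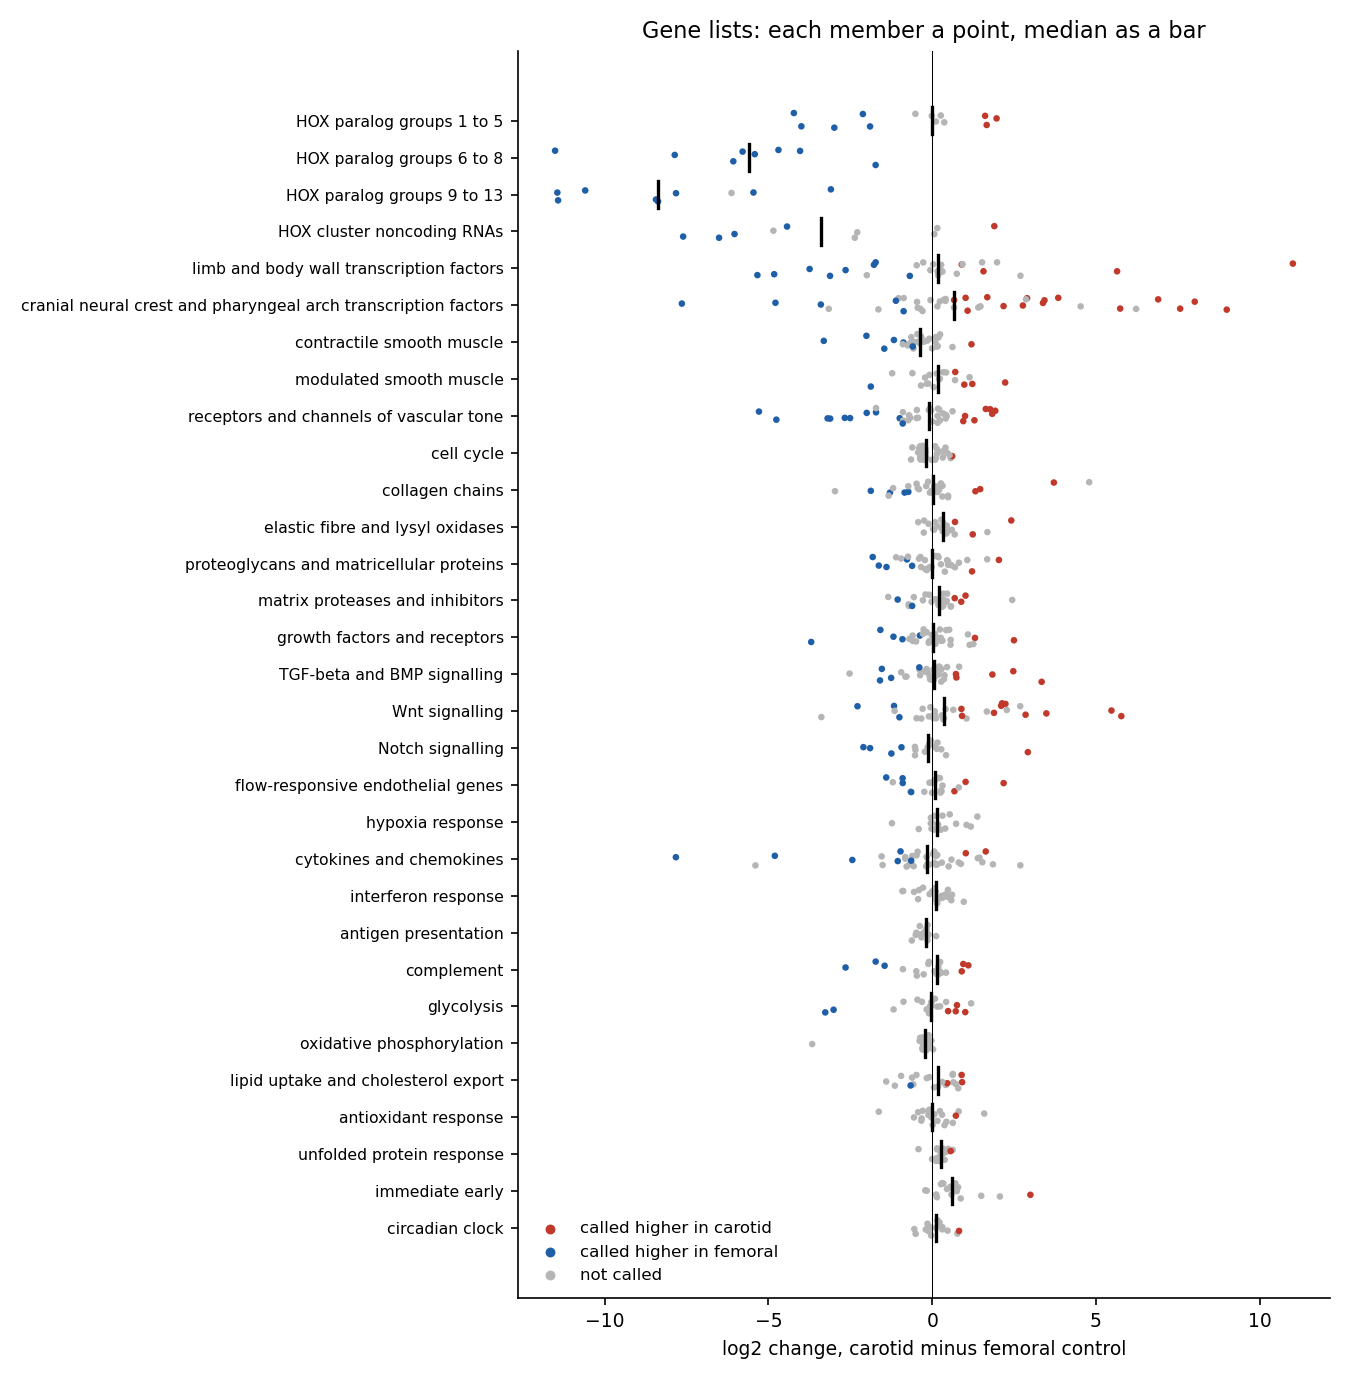
Log2 change, carotid minus femoral control, of each tested member of each gene list (points, coloured where called), with the list's median as a bar. HOX groups 6 to 8 and 9 to 13 have the lowest medians of the lists shown, −5.60 and −8.37, while the median of all genes tested is 0.00.

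Matrix genes were called in both directions. Collagen chains gave 3 higher and 4 lower of 32 tested, with a median of 0.03. Col24a1, a fibrillar collagen, was higher, at 13.3, 12.1 and 14.2 against 1.63, 0.264 and 1.103 CPM (3.71 ± 0.65, edgeR adjusted p 0.00719), as was the basement membrane chain gene Col4a6, at 109, 173 and 165 against 43.8, 51.8 and 66.4 CPM (1.47 ± 0.24, edgeR adjusted p 0.00482). The type IV chain genes Col4a1, Col4a2 and Col4a4 went the other way and were called lower. Col4a1 lost its call without carotid control 2 (0.0883) or 3 (0.0742), or femoral control 2 (0.0534) or 3 (0.0725). Col4a2 lost its call without carotid control 2 (0.0698), with the edgeR adjusted p in parentheses. Under the skeletal muscle covariate none of them was called (edgeR adjusted p 0.117, 0.0966 and 0.103). Elastic fibre genes gave 3 higher and 0 lower of 22. Efemp1 (fibulin-3) stood at 99.2, 110.2 and 110.0 against 24.2, 14.6 and 21.1 CPM (2.41 ± 0.18, edgeR adjusted p 5.19e-05). Mfap4, a microfibril-associated protein, was also higher (0.70 ± 0.13, edgeR adjusted p 0.00883), with an adjusted p of 0.0617 under the skeletal muscle covariate. The third, Emilin2, lost its call without femoral control 2 (0.0556) and femoral control 3 (0.0571), with the adjusted p in parentheses.

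Proteoglycans and matricellular proteins gave 2 higher and 5 lower of 32. Beside Postn, Wisp2 was higher, at 307, 318 and 350.1 against 141, 119 and 160.1 CPM (1.22 ± 0.20, edgeR adjusted p 0.00465). Comp, the cartilage oligomeric matrix protein that binds collagen, was lower, at 103, 114 and 115 against 386, 281 and 505 CPM (−1.82 ± 0.23, edgeR adjusted p 0.00116). Sparcl1 was lower, at 265, 469 and 392.2 against 1388, 1112 and 990.0 CPM (−1.63 ± 0.29, edgeR adjusted p 0.00742), and so was the small leucine-rich proteoglycan gene Podn, at 24.4, 34.2 and 35.99 against 66.5, 76.5 and 106 CPM (−1.40 ± 0.25, edgeR adjusted p 0.00732). Of 16 tested adventitial fibroblast markers, 2 were higher and 3 lower; the scavenging chemokine receptor gene Ackr3 was higher, at 197, 231 and 177 against 72.3, 58.8 and 42.5 CPM (1.80 ± 0.20, edgeR adjusted p 6.10e-04). Matrix proteases and inhibitors gave 3 higher and 2 lower of 31, and Plau (urokinase) was lower, at 83.7, 49.7 and 61.03 against 131, 126 and 147 CPM (−1.05 ± 0.17, edgeR adjusted p 0.00497).

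Inflammatory genes also had calls in both directions. Cytokines and chemokines gave 2 higher and 6 lower of 41. Cxcl14 stood at 18.9, 2.86 and 5.503 against 246, 243 and 271 CPM (−4.80 ± 0.59, edgeR adjusted p 9.997e-04), or −5.92 without carotid control 1, the highest of the 3 carotid values. Ccl6, a chemokine of myeloid cells, was higher, at 439.5, 357 and 332 against 153, 116 and 94.4 CPM (1.63 ± 0.24, edgeR adjusted p 0.00253). Il6 stood at 16.8, 18.8 and 8.64 against 29.5, 23.2 and 14.8 CPM, Ccl2 at 84.5, 67.2 and 46.1 against 103, 68.6 and 47.3 CPM and Il1b at 124, 70.3 and 20.3 against 82.1, 45.02 and 24.6 CPM, each with overlap and no call. Arg1 (arginase), of repair macrophages, was higher, at 88.3, 28.4 and 34.7 against 7.097, 6.73 and 6.07 CPM (2.93 ± 0.48, edgeR adjusted p 0.00529), and at 2.25 without carotid control 1. Macrophage genes as a list gave 2 higher and 1 lower of 19, with a median of 0.51 (0.003 in the knockouts). The 1 lower was Lyve1, which is also on the lymphatic list. Without overlap between the control vessels, 8 of the 19 lay higher on the carotid side and 2 on the femoral side. Over all genes tested these shares were 11.7% and 13.6%. Adgre1 stood at 173, 133 and 149 against 118, 108 and 110.0 CPM and Cd68 at 109.7, 76.8 and 76.6 against 68.9, 60.6 and 51.4 CPM, without overlap but not called. Complement genes gave 3 higher and 3 lower of 21. Clu, the fluid-phase inhibitor clusterin, was higher, at 839, 1114 and 731 against 480.2, 400.4 and 369 CPM (1.10 ± 0.16, edgeR adjusted p 0.00223), and Masp1, a lectin pathway protease, lower, at 5.803, 2.71 and 4.68 against 13.1, 13.03 and 17.5 CPM (−1.73 ± 0.29, edgeR adjusted p 0.00557).

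By edgeR no gene was called among 29 interferon response genes, where 3 had an unadjusted p under 0.05, DESeq2 called 1 and limma-voom 0. Of 15 antigen presentation genes edgeR also called 0, with 2 at an unadjusted p under 0.05, 1 called by DESeq2 and 0 by limma-voom. Of 28 oxidative phosphorylation genes it called 0, with 3 at an unadjusted p under 0.05, 1 by DESeq2 and 0 by limma-voom. Glycolysis genes gave 4 higher (Hk2, Slc2a1, Pgam1 and Ldhb) and 2 lower (Pgam2 and Eno3) of 23 tested, each lost in at least 1 omission. Eno3 is also on the skeletal muscle list, and the part of muscle RNA in these calls was not tested beyond the covariate. Of 19 hypoxia response genes edgeR called 0, with 6 at an unadjusted p under 0.05, 5 by DESeq2 and 0 by limma-voom. Signs leaned within these lists. The change was negative for 27 of the 28 oxidative phosphorylation genes (median −0.21) and 14 of the 15 antigen presentation genes (median −0.18). It was positive for 22 of the 29 interferon genes (median 0.11) and 13 of the 19 hypoxia genes (median 0.16).

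Endothelial genes leaned to the femoral artery with calls that single libraries decided. Of 18 tested markers 6 were lower in the carotid artery, with a median of −0.49, and none kept its call in all omissions. In the knockouts 0 of the 18 were called, with a median of 0.06, and the test of the difference between genotypes called none of them (lowest edgeR adjusted p 0.289, for Robo4). The summed level of the list was 2679, 2597 and 1830.0 against 3392, 3363 and 2948 CPM. Pecam1 stood at 542, 526 and 351 against 629, 613 and 482 CPM and Cdh5 at 342, 307 and 194 against 314, 292 and 255 CPM, each overlapping between vessels and not called. Cldn5, a tight junction protein, stood at 61.5, 101 and 39.9 against 152, 209.6 and 163 CPM (−1.38 ± 0.29, edgeR adjusted p 0.0191), and was not called without carotid control 1 (0.0541) and femoral control 2 (0.0758), with the adjusted p in parentheses. Among 22 tested flow-responsive genes, 3 were higher and 4 lower. Gja1, the gap junction protein connexin 43, stood at 306, 319 and 278 against 135, 162 and 149 CPM (1.02 ± 0.12, edgeR adjusted p 7.79e-04). Ptgs2, the inducible cyclooxygenase, stood at 206, 124 and 211 against 45.1, 39.6 and 34.5 CPM (2.18 ± 0.31, edgeR adjusted p 0.00217).

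Lymphatic endothelial markers were lower in the carotid libraries, 5 of 7 tested, with 1 higher and a median of −1.66. Prox1, the factor that defines lymphatic identity, stood at 0.408, 0.359 and 0.3098 against 11.5, 5.47 and 10.99 CPM (−4.69 ± 0.49, edgeR adjusted p 3.89e-04). Mmrn1 stood at 0.213, 0.208 and 0.565 against 56.4, 48.7 and 60.6 CPM (−7.37 ± 0.77, edgeR adjusted p 3.92e-04), or −8.02 without carotid control 3. Flt4, the receptor for lymphatic growth factors, stood at 16.01, 16.4 and 12.3 against 45.3, 40.3 and 55.4 CPM (−1.66 ± 0.22, edgeR adjusted p 0.001697), and Lyve1 at 23.2, 26.8 and 28.9 against 57.3, 73.6 and 74.5 CPM (−1.38 ± 0.21, edgeR adjusted p 0.00377). Ccl21a, a chemokine of lymphatic vessels with near-identical copies in the genome that make its counts uncertain, stood at 0.0582, 0.265 and 1.49 against 119, 162 and 139 CPM (−7.83 ± 1.23, edgeR adjusted p 0.00398), or −9.73 without carotid control 3. Pdpn, also found on fibroblasts, was the 1 higher marker and was not called without carotid control 3 (0.0628), femoral control 2 (0.0827) and femoral control 3 (0.0729), with the adjusted p in parentheses. Of 9 tested lymph node stroma genes 3 were lower, Ccl21a again, Ccl19 and Cxcl13. Ccl19 lost its call without carotid control 1, 2 or 3 or femoral control 1 or 2. Cxcl13 lost its call without any 1 library other than carotid control 1. The summed level of the 9 genes was 87.4, 96.6 and 94.5 against 221, 260.1 and 239 CPM. Of the femoral sums, Ccl21a alone made up 119, 162 and 139 CPM.

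Tissue around the artery differed between the libraries as well. Of 26 tested skeletal muscle genes 2 were called lower (7.69%, against 3.22% of all genes tested). The median of the 26 was −2.94, which was −4.03 without carotid control 3 and −2.21 without femoral control 2. White adipocyte markers summed to 1775, 954 and 597 against 2667, 4295 and 2642 CPM, with 2 of 14 called lower and a median of −1.40. Schwann cell markers summed to 338, 1685 and 758 against 359, 387 and 382 CPM, with carotid control 2 far above the femoral libraries and carotid control 1 below them. Of 13 tested Schwann cell genes 4 were called higher, with a median of 2.97 that was 1.84 without carotid control 2. Each of the 4 (Fa2h, Mag, Mbp and Ncmap) lost its call in at least 4 omissions of 1 library. Mbp (myelin basic protein) stood at 36.7, 337 and 131 against 23.3, 18.3 and 19.7 CPM and was not called without carotid control 2 (0.0653), femoral control 1 (0.0733), femoral control 2 (0.1) and femoral control 3 (0.0844), with the adjusted p in parentheses. Neuronal and sympathetic or glomus genes summed to 112, 156 and 179.8 against 117, 149 and 138 CPM. Of 22 tested, 2 were called higher, Hand2 and Nefl, and 2 lower, Olfr78 and Stmn2. Of these, Hand2, Olfr78 and Stmn2 kept their calls under all 19 alternatives. The median of the 22 was 2.51, which was 2.04 with genes at 0 set at their bound and 1.13 without carotid control 3. The control vessels did not overlap for 10 of the 22 on the carotid side, against 11.7% of all genes tested. Nefl, a neurofilament, stood at 0.252, 1.29 and 1.88 against 0.0189, 0 and 0 CPM and was not called without carotid control 2 (0.0749), carotid control 3 (0.082), femoral control 1 (0.123), femoral control 2 (0.128) and femoral control 3 (0.111), with the adjusted p in parentheses. In the knockouts 7 were called higher, with a summed level of 427.4 CPM in carotid knockout 1 beside 133.6 CPM in carotid knockout 2. Erythrocyte markers summed to 1524, 2770.0 and 2189 against 5732, 8247 and 2755 CPM. The parts of these tissues in the differences given above were not tested beyond the skeletal muscle covariate, under which 84 of the 238 calls were lost, 4 of them among the 141 that kept their call in every omission.

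The knockout arteries offered the same contrast in libraries that did not enter the control means. There 1047 genes were called (4.91%), 650 higher in the carotid artery (3.05%) and 397 lower (1.86%), and this count was 459 without carotid knockout 1, 591 without carotid knockout 2 and 567 without femoral knockout 2. Of the 1326 genes called in the controls, 1255 had the same sign in the knockouts (94.65%, against 64.18% of all genes tested). Of the 1326, 550 were also called in the same direction, which is 41.48% of the control calls and 52.53% of the knockout calls. The share was 52.58% of the 639 genes higher in the carotid artery and 31.15% of the 687 lower. The median of the 639 was 1.33 in the controls, which chose them, and 1.12 in the knockouts, and that of the 687 was −1.46 and −0.82.

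All 8 genes of HOX groups 6 to 8 and the 8 called of groups 9 to 13 were again called lower in the knockouts, with medians of −5.02 and −7.25. P2rx1 changed by −5.20 there (edgeR adjusted p 1.38e-05), Hand2 by 6.38 (edgeR adjusted p 0.00124) and Alx4 by −5.14 (edgeR adjusted p 5.42e-06). Wnt genes gave 12 higher and 1 lower, with a median of 0.59. Some other control differences were smaller or opposite in sign there. Ccl21a stood at −2.34 (edgeR adjusted p 0.257), Arg1 at −0.84 (edgeR adjusted p 0.395) and Ptgs2 at 0.11 (edgeR adjusted p 0.897). The test of the difference between genotypes did not call them, with edgeR adjusted p of 0.423, 0.257 and 0.321.

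That test called 1 gene of 21343 (0.00469%), Jag2, while 1815 had an unadjusted p under 0.05. Jag2 stood at 25.9 and 26.7 against 23.6, 27.6 and 28.4 CPM in the knockouts, so that the lower carotid level seen in the controls (−2.10) was −0.01 there, a difference of 2.09 (edgeR adjusted p 0.0394). The count was 0 without carotid control 2, carotid control 3, carotid knockout 1, femoral control 1 or any 1 of the 3 femoral knockouts, and 3 without carotid knockout 2. The call of Jag2 was lost without any 1 of 9 libraries, and DESeq2 called 171 genes for the difference.

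**Figure D5:**
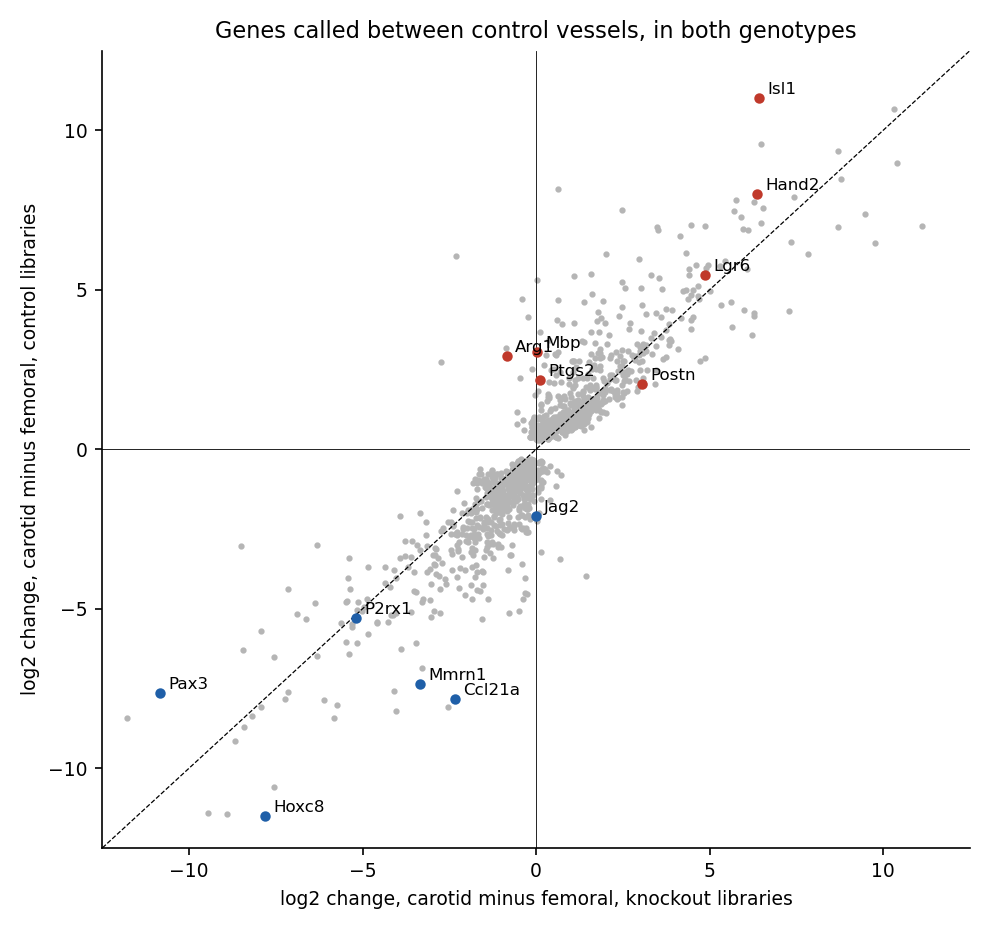
Log2 change, carotid minus femoral, of the genes called between the control arteries, with the knockout libraries on the x axis and the control libraries on the y axis; 1 point is 1 gene and the dashed line marks equal change. Of 1326 genes, 1255 have the same sign in both, and Jag2, at −2.10 and −0.01, is the gene called for the difference.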

How the data were processed

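The authors deposited raw counts, whole numbers per gene for 48897 genes in 11 libraries, with no other unit. Tools named per the submitters' processing notes, with neither versions nor steps, are HISAT2, HTSeq and the packages DESeq, DESeq2 and edgeR; a strand setting is not given in the sources used here. The notes name mm9, but 99.8% of 39064 genes joined by NCBI gene ID overlap their GRCm38 positions, so positions are given as GRCm38. A total of 27 symbols read as dates were restored by gene ID.

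Computed here, edgeR 4.0.16 (R 4.3.3) fitted 4 group means to 11 libraries with 7 residual degrees of freedom, TMM scaling (factors 0.963 to 1.03) and its default expression filter, and tested contrasts two-sided by quasi-likelihood at an adjusted p of 0.05. Standard errors follow from the F statistic. Bounds take 3 counts for a count of 0 over a group and cover counting error only, as do counting intervals. limma 3.58.1 and DESeq2 1.42.0 gave alternatives; Python 3.11.15, pandas 2.3.3 and matplotlib 3.10.9 made tables and figures. On simulated counts the test recovered 20.9% of genes changed 1.5-fold, 64.2% changed 2-fold and 92.4% changed 4-fold, with 6 false calls among 20666 genes.

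Members and gene lists were chosen with earlier results of these data known, and lists were described, not tested. Genes were named by rule: the HOX genes, the 15 largest rises and falls (at least 5 CPM), the 5 called genes of highest level in each direction, and up to 4 called members of smallest p per list. A listed item is not reported here. Other members named were picked after their values were seen. Alternatives covered scaling, tool, filter, libraries, a skeletal muscle covariate and a replicate block.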

Additional observations from a re-analysis of the deposited data

Results flagged for a closer look

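The difference between carotid and femoral artery for Jag2, a Notch ligand, was 2.09 log2 units more positive in the knockouts than in the controls (−0.01 beside −2.10). It was the 1 gene whose vessel difference differed between the genotypes by the interaction test (edgeR adjusted p 0.0394, over 21343 genes). Leaving out 1 library kept the call without femoral control 2 (0.0308) or femoral control 3 (0.00865) and lost it without any 1 of the other 9, where the adjusted p ran from 0.069 without carotid knockout 2 to 0.185 without femoral knockout 2. DESeq2 gave an adjusted p of 2.37e-12 and limma-voom 0.0898.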

How the results depend on the processing

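The 1326 calls between control vessels became 2314 by DESeq2 and 742 with a skeletal muscle covariate, and ran from 685 to 1408 over the omissions of 1 library. The 1047 knockout calls became 2089 by DESeq2 and ran from 459 to 1182. The 1 call for the difference between genotypes became 171 by DESeq2 and 17 with no filter on low counts, and ran from 0 to 3. In the 6 controls alone, with 19133 genes tested, the control count was 1187 without and 1323 with the replicate number as a block. Over all 11 libraries the block gave 1529 knockout calls and 29 for the difference. These last 2 counts rest on a doubtful number, since the labels give the second carotid knockout library as both 2 and 3 and it was taken as 2. The numbers were not treated as pairing. Deviations of same-numbered controls correlated at 0.108, −0.0428 and 0.140, and those of differently numbered controls at −0.149 to 0.0284. With so few libraries these values cannot decide whether the numbers mark pairs. Some small values changed sign. Trim5 went to −0.0173 without femoral control 2 (range over omissions to 0.236), Hoxa5 to 0.108 without carotid control 3, 0.0706 without femoral control 1 and 0.0136 without femoral control 2 (lowest −0.118), Acta2 to 0.0139 without carotid control 1 (lowest −0.279), and Smtn to −0.0543 without carotid control 2 (highest 0.313). LOC102632302, listed as Hoxb3os, went to −0.102 with the muscle covariate and −0.0494 without carotid control 2 (highest 0.167). Medians that changed sign were those of limb factors (−0.00577 without femoral control 1, highest 0.235), epithelium (−0.113 without carotid control 1, highest 0.749) and parathyroid (2.23 in the 6 controls alone, where fewer genes were tested). The causes of these shifts were not tested. Of the 238 calls, 25 were lost with the 6 controls alone, 19 by limma-voom, 26 under the block in the 6 controls, 3 without the filter and 2 with other size factors. At 51067573 to 55998563 counts per control library, the 7 untested genes of HOX groups 9 to 13 had too few counts for a test.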

Other observations

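Among genes of none of the lists, 27 had at least 50 CPM in the higher vessel, at least a 3-fold difference and an edgeR adjusted p under 0.01, a rule set after their values were seen. Of these, 15 were higher and 12 lower in the carotid artery, and all 27 kept their call in each of the 11 omissions. Npnt (nephronectin), a matrix ligand of the integrin that contains the Itga8 chain, stood at 547, 789 and 731 against 126, 103 and 164 CPM (2.39 ± 0.26, edgeR adjusted p 5.17e-04), in the direction of Itga8. Smoc1, a calcium-binding matrix protein, stood at 196, 326 and 323 against 57.7, 55.98 and 74.4 CPM (2.17 ± 0.25, edgeR adjusted p 6.10e-04). Lrrc15, a membrane protein of activated fibroblasts, stood at 47.05, 60.6 and 49.6 against 5.92, 2.72 and 7.37 CPM (3.29 ± 0.43, edgeR adjusted p 0.00134), and Cthrc1, a secreted protein of injured arteries, at 217, 172 and 133 against 49.9, 27.2 and 37.3 CPM (2.19 ± 0.36, edgeR adjusted p 0.00523).

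On the femoral side the protease gene Adamts8 stood at 11.6, 13.4 and 10.6 against 106, 114 and 135 CPM (−3.33 ± 0.22, edgeR adjusted p 1.88e-05). The cytoskeletal genes Sorbs2 and Palld (palladin) were lower in the carotid artery, Sorbs2 at 49.2, 57.95 and 51.2 against 424, 281 and 320.3 CPM (−2.70 ± 0.29, edgeR adjusted p 4.78e-04) and Palld at 170.1, 121 and 128 against 521, 374 and 482 CPM (−1.72 ± 0.20, edgeR adjusted p 6.27e-04). Serpina3n, a protease inhibitor with close paralogs that make its counts less certain, stood at 159, 111 and 179 against 731, 559.8 and 636 CPM (−2.10 ± 0.32, edgeR adjusted p 0.00353). The femoral artery was also higher for Cilp, Susd2, C7 and Sema3g.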
